A study of Mus musculus with 12 samples.

Results

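Loss of STING was examined in peritoneal macrophages of C57BL/6 mice that also lacked SAMHD1. The 3 RNA sequencing libraries labelled SAMHD1 Sting dKO were compared with the 3 labelled SAMHD1 KO, 6 of the 12 libraries of the series, over every gene that reached 10 normalized reads in 3 or more of the 12 libraries. Single libraries are named by group and number, as in SAMHD1 KO 2. This rule kept 13231 of the 15721 genes in the table. Both groups share the SAMHD1 deficiency, so the comparison asks what removing STING changes in cells that already lack SAMHD1. The other 6 libraries came from WT mice and from SAMHD1 Cardif dKO mice, 3 each, where Cardif is another name of MAVS. The labels give no unit for age. The age was 19, 18 and 16 in SAMHD1 KO, 24, 16 and 18 in SAMHD1 Sting dKO, 18, 18 and 16 in SAMHD1 Cardif dKO and 16 in each WT library. The mice were female except for SAMHD1 Cardif dKO 1. The labels name neither the alleles nor the sorting gate, and do not say whether each library came from its own animal, so p-values measure only the spread between these libraries.

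SAMHD1 breaks down deoxynucleotides and helps process newly made DNA at stalled replication forks, and its loss in people causes an inherited disease with raised interferon. STING is the membrane adaptor of the cytosolic DNA sensor cGAS: the cyclic dinucleotide made by cGAS binds STING, which recruits the kinase TBK1 and activates the transcription factor IRF3 and, with it, the interferon beta gene. Secreted type I interferon then acts through its receptor, JAK1 and TYK2 on a complex of STAT proteins with IRF9, which binds the interferon-stimulated response element in front of its target genes. MAVS plays the corresponding adaptor role for the RNA sensors RIG-I and MDA5.

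The core of that element, GAAA and GAAA with 2 bases of any kind between them, was read on both strands in RefSeq promoter windows (GRCm38.p6) from 250 bases before to 50 bases after the start. It was found in 67 of the 301 genes called lower in SAMHD1 Sting dKO that had a window (22.3%), in 8 of 269 called higher (2.97%) and in 386 of all 9754 tested genes with a window (3.96%). Of all 32851 windows in that table, 3.44% held it. Among the called-lower genes of the type I interferon list described below, 31 of 61 held it (50.8%), and among the genes of that list not called 3 of 16 (18.8%). The stretches shown here are those of the 8 called-lower genes with the lowest adjusted p whose 40-base stretch around the core lay wholly before the start. Windows on the chromosome of Tmem173, the gene of STING, were left out of this choice. Other strong falls had a window without the core, among them Lgals3bp, Herc6, Ifi44, Oasl1 and Irf7. Capitals mark the core, which reads GAAA, 2 bases, GAAA along the gene or, on the other strand, TTTC, 2 bases, TTTC. All 8 genes are on the minus strand, and sequences run 5′ to 3′ along the gene.
Trim30a (chr7:104465205-104465244, minus strand): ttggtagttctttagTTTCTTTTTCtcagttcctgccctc
Oas3 (chr5:120777710-120777749, minus strand): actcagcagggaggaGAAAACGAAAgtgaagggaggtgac
Rsad2 (chr12:26456548-26456587, minus strand): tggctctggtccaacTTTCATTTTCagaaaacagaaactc
E030037K03Rik, now Ifi213 (chr1:173599321-173599360, minus strand): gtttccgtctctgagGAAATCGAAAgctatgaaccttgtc
Mnda (chr1:173913059-173913098, minus strand): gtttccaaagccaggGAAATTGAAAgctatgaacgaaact
Gm1966 (chr7:106644784-106644823, minus strand): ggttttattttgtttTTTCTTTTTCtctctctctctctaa
Slfn8 (chr11:83020834-83020873, minus strand): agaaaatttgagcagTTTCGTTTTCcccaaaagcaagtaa
Ifi203 (chr1:173942503-173942542, minus strand): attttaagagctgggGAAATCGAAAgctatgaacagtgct
A match is a description of letters and not a binding site. The palindromic gamma-activated site TTCNNNGAA (N is any base) was found in 12.3% of called-lower genes with a window, in 27 of the 269 called higher and in 8.32% of all tested genes, and the kappa B core, GGG, 2 bases of any kind, TT, 1 base and CC, in 10.6%, 5.58% and 6.46%. Windows could hold more than one of these motifs, and both strands were read.

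Depth ran from 18884021 to 32204657 reads per library over the 12 libraries, and 15238 to 15470 genes had a read in each. The libraries correlated with each other across genes at r = 0.946 to 0.990. Macrophage markers were high in both groups: Lyz2, the lysozyme gene of myeloid cells, was at 807748, 599699 and 761359 normalized reads in SAMHD1 KO and 963283, 915134 and 933899.9 in SAMHD1 Sting dKO. Csf1r, the receptor for the macrophage growth factor, was at 43977, 42370.1 and 42781 and 42797, 38279.5 and 48318. Gata6, the factor that defines large peritoneal macrophages, was at 3829, 3134 and 4414 and 3273, 3744 and 3169.8. For these 3 genes and for Emr1 (F4/80), Itgam, Cd14, Mertk, Cd68, Timd4, Icam2, Vsig4, Selp and Alox15, the adjusted p of the comparison was at least 0.109, with log2 differences from -0.35 (Emr1) to 0.56 (Vsig4). The exception among the macrophage markers read here was Fcgr1, which was called lower (log2 -0.99, adjusted p = 0.00461). Of 36 genes of large peritoneal macrophage identity, 3 were called lower (8.33%, beside 2.89% over all genes), Cfb, F10 and Cd5l, and 0 higher. The call of F10 was lost without SAMHD1 KO 2 or 3 or SAMHD1 Sting dKO 3, and that of Cd5l without any one library other than SAMHD1 Cardif dKO 1 or 3 or SAMHD1 Sting dKO 2.

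Relative to SAMHD1 KO, 366 of the 13231 genes were called higher in SAMHD1 Sting dKO (2.77%) and 383 lower (2.89%) by limma, 5.66% together. In all 749, the 3 libraries of one group lay wholly above the 3 of the other. By the same measure 11.9% of all tested genes lay wholly higher and 12.9% wholly lower. By edgeR 405 genes were higher (3.06%) and 371 lower (2.8%), and by DESeq2 646 (4.88%) and 660 (4.99%). The change exceeded 2-fold in 157 of the higher and 123 of the lower genes. The median log2 change of all tested genes was -0.00. Of the 383 lower genes, 105 were on the lists of type I interferon response genes, interferon-inducible GTPases or MHC class I genes. Of the 366 higher genes, 19 were B cell markers. The count of 749 became 421, 467 and 422 without SAMHD1 KO 2 or 3 or SAMHD1 Sting dKO 2. Without these 3 libraries in that order, 201, 198 and 202 genes were higher, and without SAMHD1 Sting dKO 1 the count was 215. The count of lower genes was 220 without SAMHD1 KO 2 and 220 without SAMHD1 Sting dKO 2.

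**Figure D1:**
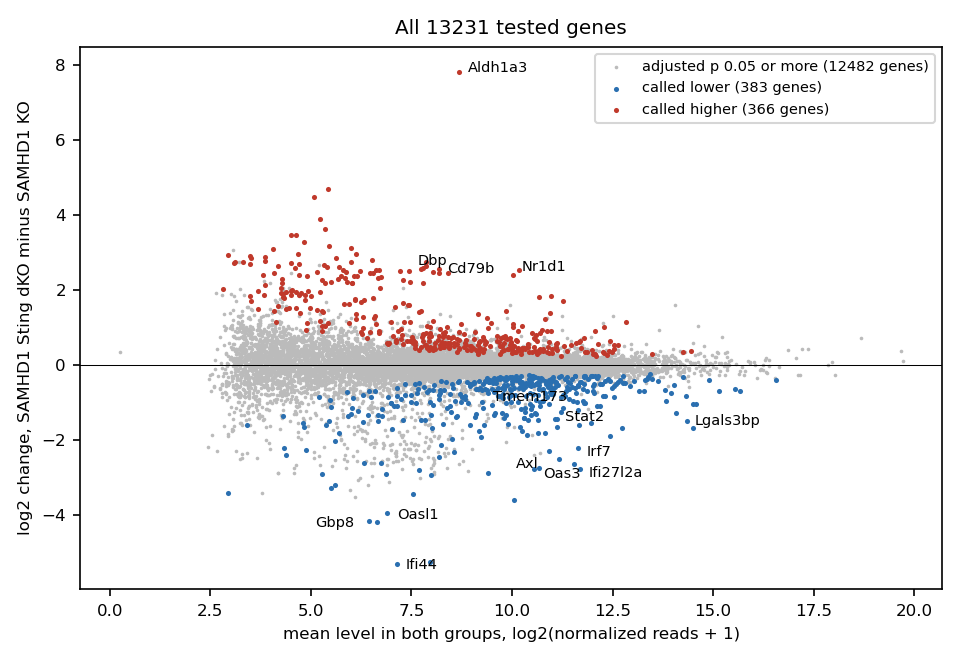
Each point is 1 of 13231 tested genes. The x axis gives the mean level in SAMHD1 KO and SAMHD1 Sting dKO as log2(normalized reads + 1), and the y axis gives the log2 change of SAMHD1 Sting dKO minus SAMHD1 KO; blue marks 383 genes called lower and red 366 called higher at adjusted p under 0.05. Aldh1a3 stands at 7.83 and Ifi44 at -5.31.

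The genes named by the genotypes were still transcribed. Tmem173, the gene of STING, was at 696, 768 and 741 normalized reads in SAMHD1 KO and 577, 538 and 539 in SAMHD1 Sting dKO (log2 -0.41, SE 0.0840, adjusted p = 0.0149), beside 537, 481 and 548 in WT. The SAMHD1 Sting dKO values lay below all SAMHD1 KO values and within or just above the WT range, so reads summed over the gene cannot test the label, and groups are named as labelled. Of the 20 tested genes nearest to Tmem173 on its chromosome, 1 was called, the plasma cell and B cell gene 2010001M09Rik (Mzb1), which was higher. Samhd1 was at 6188, 7816 and 5555 in SAMHD1 KO and 3196, 3291 and 4563 in SAMHD1 Sting dKO (log2 -0.83, SE 0.167, adjusted p = 0.0145), both below the WT values of 11525, 10113 and 10644. Mavs did not differ detectably, at 966, 840.2 and 925 and 1008, 768 and 955 (log2 -0.01, SE 0.101, adjusted p = 0.979). The call of Tmem173 was lost without SAMHD1 KO 2 or SAMHD1 Sting dKO 2, and that of Samhd1 without either of these or SAMHD1 Sting dKO 1.

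Of 28 genes on the list of interferon ligands, receptors and JAK-STAT signalling, 21 were tested, 5 were lower, 0 higher and 16 not called, with a median log2 change of -0.19. The lower ones were 23.8% of those tested, beside 2.89% over all genes. The remaining 7, including the interferon genes themselves, are not analysed here. Usp18, Irf7, Stat2 and Irf9 were among the 5. Irf7, an interferon-induced factor that drives more interferon to be made, was at 5418, 6000.4 and 4338 normalized reads in SAMHD1 KO and 937, 1487 and 1028 in SAMHD1 Sting dKO (log2 -2.21, SE 0.230, adjusted p = 0.000420). Its 3 SAMHD1 Sting dKO values lay far below every SAMHD1 KO value and around or below those of WT, 1884, 1115 and 1789.9. Stat2, a signal transducer of the type I interferon receptor, fell from 2801, 3947 and 2713 to 1121, 1156 and 1154 (log2 -1.44, SE 0.220, adjusted p = 0.00319), with no overlap. Its partner Irf9 fell too (log2 -0.68). Usp18, which removes ISG15 from proteins and damps the receptor, fell from 517, 519 and 437 to 78.1, 105 and 85.9 (log2 -2.45, SE 0.254, adjusted p = 0.000420). The receptor chains Ifnar1 (0.14, adjusted p = 0.435) and Ifnar2 (-0.16, adjusted p = 0.197) and the kinases Jak1 (-0.09, adjusted p = 0.399) and Tyk2 (-0.10, adjusted p = 0.453) were not called. The same was true of Tbk1 (-0.17, adjusted p = 0.182) and Irf3 (0.05, adjusted p = 0.755), which act directly downstream of STING.

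Of 22 cytosolic RNA sensing genes, 8 were lower (36.4%, beside 2.89% over all genes) and 0 higher (median log2 -0.32). Ddx58, which encodes RIG-I, was at 2023, 1977 and 2128 normalized reads in SAMHD1 KO and 1011, 1127 and 1073 in SAMHD1 Sting dKO (log2 -0.93, SE 0.117, adjusted p = 0.00107). Ifih1, which encodes MDA5, fell from 1834, 1628 and 1544 to 929, 985 and 921 (log2 -0.82, SE 0.117, adjusted p = 0.00232). For both genes the groups did not overlap. The SAMHD1 Sting dKO values overlapped those of WT for Ddx58 (1235, 1013 and 1288) and lay below all of them for Ifih1 (1140.0, 1115 and 1247). Dhx58, the regulator LGP2 (-0.97), the helicase Znfx1 (-0.84) and the RNA-editing enzyme Adar (-0.79) fell as well. Of 27 cytosolic DNA sensing genes, 6 were lower (22.2%) and 1 was higher (median -0.07). The lower ones were Zbp1, the sensor of Z-form nucleic acids (-1.65), the GTPase Irgm1 (-1.41), Samhd1, the DNA-binding Ifi204 (-0.81), the exonuclease Trex1 (-0.59) and Tmem173 itself. Other sensor genes were not called: the gene of cGAS, listed as E330016A19Rik, was at -0.61 (adjusted p = 0.112) and Aim2 at -0.05 (adjusted p = 0.850).

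Type I interferon response genes fell as a group. Of 94 tested genes on this list, 74 were lower and 0 higher (78.7%, beside 2.89% called lower over all genes), 92 had a negative log2 change, and the median was -0.94. The list took 1.17%, 1.40% and 1.16% of the reads in the SAMHD1 KO libraries and 0.598%, 0.635% and 0.598% in those of SAMHD1 Sting dKO, with no overlap. In WT the share ran from 0.664% to 0.834% and in SAMHD1 Cardif dKO from 0.708% to 0.868%, above every SAMHD1 Sting dKO library. Ifi44, an interferon-induced gene linked to antiviral defence, was at 328, 331 and 166 normalized reads in SAMHD1 KO and 2.199, 10.1 and 7.16 in SAMHD1 Sting dKO (log2 -5.31, SE 0.494, adjusted p = 0.000220). It had 895 reads over the 3 SAMHD1 KO libraries and 17 over the 3 SAMHD1 Sting dKO libraries, a ratio of normalized totals of 43.1 (exact 95% interval 26.8 to 74.4, counting error only). Oas3, which makes the oligoadenylate that activates RNase L, was at 2598, 2689 and 2578 and 395, 453 and 309 (log2 -2.78, SE 0.240, adjusted p = 0.000160). The spread within each group was small beside that gap, and the SAMHD1 Sting dKO values lay near or below the lowest of the 3 WT values (895, 453 and 828). Lgals3bp, a secreted glycoprotein, had the lowest adjusted p of all lower genes, at 31319, 29978 and 30596 and 10833, 11889.9 and 10229.8 (log2 -1.48, SE 0.0941, adjusted p = 1.49e-05).

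**Figure D2:**
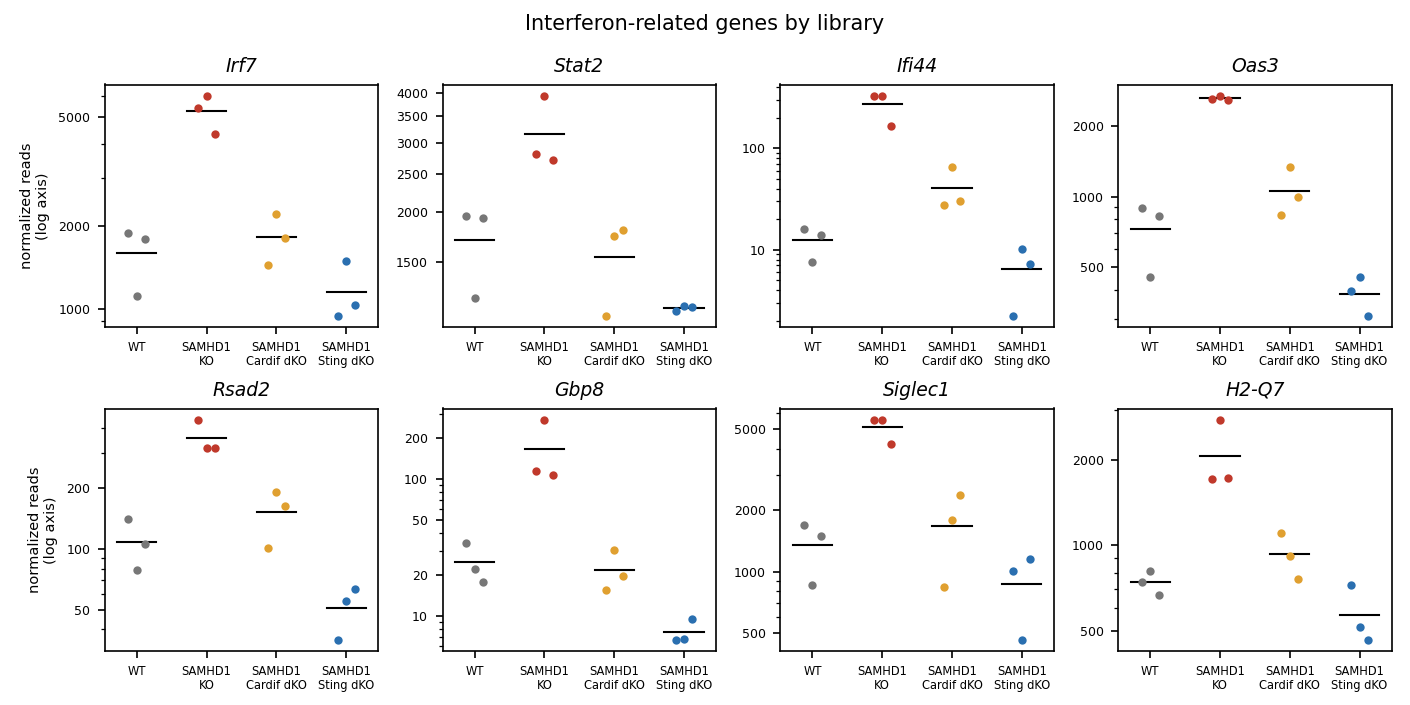
Normalized reads on a log axis in each of the 12 libraries for 8 interferon-related genes, with 3 points per genotype and a line at the mean. In each panel the 3 SAMHD1 Sting dKO libraries (blue) lie below the 3 SAMHD1 KO libraries (red), with Irf7 at 937, 1487 and 1028 against 5418, 6000.4 and 4338.

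Antiviral effectors showed the same pattern with different sizes. Rsad2, the antiviral enzyme viperin, was at 439, 318 and 316 normalized reads in SAMHD1 KO and 35.2, 55.1 and 63.2 in SAMHD1 Sting dKO (log2 -2.80, SE 0.291, adjusted p = 0.000420). Ifit1, which binds foreign RNA ends, fell from 198, 227 and 184 to 18.7, 46.1 and 20.3 (log2 -2.91, SE 0.466, adjusted p = 0.00403). Oasl1, which restrains translation of Irf7, fell from 237, 222 and 202 to 9.90, 13.5 and 17.9 (log2 -3.94, SE 0.372, adjusted p = 0.000220). In each of these genes all SAMHD1 Sting dKO values were below all SAMHD1 KO values. Ifit3 (log2 -2.61), the ubiquitin-like Isg15 (-1.70), Mx1 (-1.60), Herc6, the ligase that attaches ISG15 in mice (-1.29), and Trim30a (-0.96) fell as well, as did Slfn4 of the schlafen family (-1.67). The call of Mx1 was lost without SAMHD1 Sting dKO 1 (adjusted p = 0.0522). Several genes of the Ifi200 family of DNA-binding proteins were among the 15 largest falls. E030037K03Rik, now Ifi213, was at 609.9, 469 and 365 and 10.99, 10.1 and 13.1 (log2 -5.26), Gm4955, now Ifi206, at -4.17 and Ifi205 at -3.42. These genes are close copies of each other and reads may be shared between them. Ifi27l2b (log2 -2.75) stayed at 0.481 to 0.513 times the value of Ifi27l2a (-2.76) in all 12 libraries, so that the same reads may stand behind both.

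Interferon-inducible GTPases, which act at the membranes of intracellular pathogens, were lower in all 19 tested members, with a median log2 change of -1.56. Over all genes 2.89% were called lower. Gbp8 was at 115, 273 and 107 normalized reads in SAMHD1 KO and 6.60, 6.75 and 9.54 in SAMHD1 Sting dKO (log2 -4.14, SE 0.387, adjusted p = 0.000220). Iigp1, an immunity-related GTPase, was at 1225, 3806.9 and 872 and 104, 105 and 208 (log2 -3.59, SE 0.517, adjusted p = 0.00238), and Tgtp2 at 235, 916 and 221 and 46.2, 38.2 and 58.4 (log2 -2.92, SE 0.539, adjusted p = 0.00891). SAMHD1 KO 2 stood apart in these genes, at the highest value in each, and the other SAMHD1 KO libraries still lay above every SAMHD1 Sting dKO library. Gbp6 (log2 -2.31), Gbp9 (-1.76), Gm4070 (-1.68) and Irgm1 (-1.41) were smaller falls. Without SAMHD1 KO 2 the log2 change of Iigp1 was -2.97 and that of Tgtp2 -2.25. Without that library 17 of the 19 were called, and the lowest count without any 1 library was 13, without SAMHD1 Sting dKO 2.

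MHC class I genes were lower. Of 26 tested genes of class I presentation, 16 were lower (61.5%, beside 2.89% over all genes) and 0 higher, and all 26 had a negative log2 change (median -0.62). The non-classical H2-Q7 was at 1713, 2768 and 1724 normalized reads in SAMHD1 KO and 726, 516 and 463 in SAMHD1 Sting dKO (log2 -1.85, SE 0.209, adjusted p = 0.000639), and H2-Q6 at 2737, 3361 and 2271 and 1084, 627 and 707 (log2 -1.81, SE 0.198, adjusted p = 0.000594). Both were lower in every SAMHD1 Sting dKO library, and near copies in the H2-Q region may share reads. AI451557, which is Nlrc5, the transactivator of class I genes, fell (log2 -1.30), as did H2-gs10, now H2-Q4 (-1.01). The abundant classical genes had smaller falls: H2-K1 was at 59114, 70710.0 and 63856 normalized reads in SAMHD1 KO and 45939, 39209 and 35158 in SAMHD1 Sting dKO (log2 -0.69), the log2 change of the light chain B2m was -0.69, and that of H2-D1 was -0.39 (adjusted p = 0.0435). The call of H2-D1 was lost without any one library other than SAMHD1 Cardif dKO 1 or SAMHD1 Sting dKO 1. Of 12 class II genes, 0 were lower and 3 were higher (25%, beside 2.77% over all genes), with a list median of -0.21. The 3 were H2-Ob (1.04), H2-DMb2 (1.54) and H2-Oa (1.90). H2-Oa and H2-Ob encode H2-O, a modulator of peptide loading known from B cells. With the mean of the B cell list as a covariate the log2 changes were 0.32 for H2-Ob, -0.27 for H2-DMb2 and 1.51 for H2-Oa, none of them called. The part of B cells in these genes was not tested. The call of H2-DMb2 was lost without SAMHD1 KO 3, and that of H2-Oa without SAMHD1 KO 2 or 3 or any one SAMHD1 Sting dKO library.

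**Figure D3:**
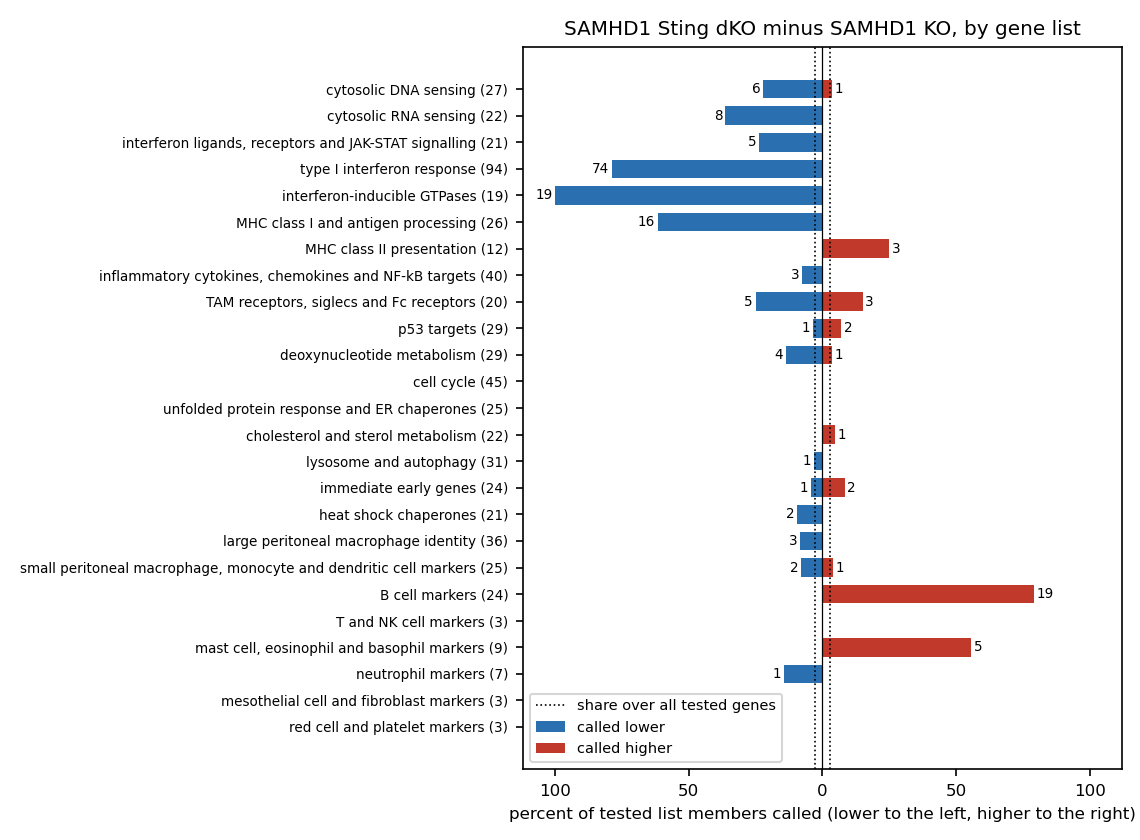
Share of the tested members of 25 gene lists called lower (blue, to the left) or higher (red, to the right) in SAMHD1 Sting dKO minus SAMHD1 KO. Numbers at the bars are counts of genes, numbers in brackets are tested members, and dotted lines mark the shares over all tested genes, 2.89% lower and 2.77% higher. The lists with more than 50% called are interferon-inducible GTPases (19 of 19), type I interferon response (74 of 94), MHC class I (16 of 26), B cell markers (19 of 24) and mast cell, eosinophil and basophil markers (5 of 9).

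Several surface receptors of macrophages also fell. Of 20 tested TAM receptors, siglecs and Fc receptors, 5 were lower and 3 higher (25% and 15%, beside 2.89% and 2.77% over all genes). Siglec1, the sialic acid receptor CD169, was at 5571, 5585 and 4223 normalized reads in SAMHD1 KO and 1006, 460.1 and 1154 in SAMHD1 Sting dKO (log2 -2.65, SE 0.404, adjusted p = 0.00321). Axl, the receptor tyrosine kinase that takes up dying cells and curbs inflammation, was at 3624, 2893 and 3093 and 410.1, 613 and 1075 (log2 -2.30, SE 0.288, adjusted p = 0.00107). Both were lower in every SAMHD1 Sting dKO library, in which they overlapped the WT values (1694, 859 and 1493 for Siglec1 and 835, 466 and 604 for Axl). The activating Fc receptors Fcgr4 (log2 -1.60) and Fcgr1 (-0.99) were lower as well. Among the 3 higher ones were Cd22 (2.64) and Siglecg (2.57), inhibitory siglecs of B cells. Complement genes were read after their values were seen. Cfb, factor B of the alternative pathway, was at 34591, 36923 and 26385 and 18047, 14223 and 15069 (log2 -1.04, SE 0.208, adjusted p = 0.0138). The neighbouring C2 gave nearly the same log2 value (-1.05), and the ratio of Cfb to C2 stayed within 1.04 to 1.05 in all 12 libraries, so the 2 genes cannot be counted as separate. The calls of both were lost without SAMHD1 KO 2 (adjusted p of Cfb = 0.0540) or SAMHD1 Sting dKO 2 (adjusted p = 0.0537). C3 (-0.59, adjusted p = 0.182) and C4b (-0.27, adjusted p = 0.281) were not called.

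The largest rise was that of Aldh1a3, an enzyme that makes retinoic acid from retinal. It was at 3.30, 2.06 and 1.89 normalized reads in SAMHD1 KO and 596, 1308 and 566 in SAMHD1 Sting dKO (log2 7.83, SE 0.412, adjusted p = 3.45e-06), the lowest adjusted p of all genes. It was also near 0 in WT (2.84, 5.73 and 1.48) and SAMHD1 Cardif dKO (6.15, 5.02 and 6.06), so that all 3 SAMHD1 Sting dKO libraries stood apart from the other 9. Over the 3 libraries of each group these were 8 recovered reads in SAMHD1 KO and 2180 in SAMHD1 Sting dKO, a ratio of normalized totals of 333 (exact 95% interval 169 to 771, counting error only). It was 1 of the 25 genes still called once the mean of the B cell list entered the model, and the only higher one among them. The related Aldh1a2 was not called (-0.31, adjusted p = 0.156). Cyp26b1, which degrades retinoic acid, was at 265, 298 and 215 and 119, 124 and 142 (log2 -1.003, SE 0.246, adjusted p = 0.0355), and its call was lost without WT 1 or 2 or any one SAMHD1 KO or SAMHD1 Sting dKO library.

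B cell genes were higher in SAMHD1 Sting dKO. Of 24 tested B cell markers, 19 were higher and 0 lower (79.2%, beside 2.77% called higher over all genes), with a median log2 change of 2.40. The mean log2 level of the list was 5.68, 5.36 and 4.90 in the SAMHD1 KO libraries and 7.91, 7.53 and 6.91 in those of SAMHD1 Sting dKO, beside 5.82 to 6.46 in WT and 5.15 to 6.16 in SAMHD1 Cardif dKO. Cd79b, a signalling chain of the B cell receptor, was at 98.1, 72.3 and 67.9 normalized reads and 727, 499 and 279 (log2 2.56, SE 0.387, adjusted p = 0.00303), and its partner chain Cd79a at 95.6, 64.0 and 33.0 and 532, 379 and 227 (log2 2.59, SE 0.407, adjusted p = 0.00367). In both genes replicate 1 of each group was the highest and replicate 3 the lowest, and the groups did not overlap. Ebf1 (log2 2.63) and Spib (2.51), transcription factors of B cells, the inhibitory receptor Btla (2.53), Fcrla (3.12) and Ly6d (2.81) were higher as well. Together the 24 markers took 0.0418% to 0.0537% of the reads in SAMHD1 Sting dKO and 0.0294% to 0.0348% in SAMHD1 KO, and none was at 0 in any library. That share is weighted to the most abundant members. Their sum was 6732 to 8217 normalized reads in SAMHD1 KO for the whole list, beside at most 98.1 for Cd79b there. In such bulk libraries more cells of a type and more RNA per cell cannot be told apart.

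Markers of mast cells and eosinophils were likewise higher than in SAMHD1 KO, 5 of 9 tested (55.6%, beside 2.77% over all genes) and 0 lower (median log2 2.74). The mean log2 level of the list was 3.05 to 3.25 in SAMHD1 KO and 4.21 to 6.30 in SAMHD1 Sting dKO. It was 4.65 to 5.57 in WT and 3.98 to 4.18 in SAMHD1 Cardif dKO. Against WT 0 of the 9 were called. Cma1, a mast cell chymase, was at 1.65, 0 and 2.83 normalized reads in SAMHD1 KO and 96.8, 138 and 11.9 in SAMHD1 Sting dKO (log2 4.69, SE 0.777, adjusted p = 0.00494), beside 29.4, 34.4 and 76.3 in WT. Its SAMHD1 KO values came from 5 reads in all, against 221 in SAMHD1 Sting dKO, a ratio of normalized totals of 54.0 (exact 95% interval 22.8 to 168, counting error only). SAMHD1 Sting dKO 3 stood far below replicates 1 and 2. Mcpt4 (3 reads in all in SAMHD1 KO and 173 in SAMHD1 Sting dKO, ratio 70.4, interval 23.7 to 345), Tpsb2 and Cpa3 were likewise lowest in replicate 3 of the SAMHD1 Sting dKO libraries, at 78.1, 107 and 8.35, 74.8, 133 and 5.96 and 114, 107 and 7.16 normalized reads. The calls of Tpsb2, Cpa3 and Il5ra (1.96) were lost without SAMHD1 KO 2 or 3 or SAMHD1 Sting dKO 1 or 2, those of Tpsb2 and Cpa3 also without SAMHD1 KO 1, those of Cpa3 and Il5ra without WT 1, that of Cpa3 without WT 2 or SAMHD1 Cardif dKO 2, and that of Il5ra without WT 3. Without SAMHD1 Sting dKO 3 the log2 changes were larger, 5.75 for Cma1, 5.58 for Mcpt4, 5.18 for Tpsb2 and 4.90 for Cpa3. They were smallest without SAMHD1 Sting dKO 2 for Cma1 (4.04), Mcpt4 (3.82) and Tpsb2 (3.05), and without SAMHD1 Sting dKO 1 for Cpa3 (2.99, beside 3.03 without SAMHD1 Sting dKO 2). Of the 11 list members in the table, 2 or 3 were at 0 in each SAMHD1 KO library and 2 in SAMHD1 Sting dKO 3, with 0 in the other two SAMHD1 Sting dKO libraries. The summed share of reads on the whole list overlapped between the groups, at 0.00733%, 0.00942% and 0.0135% in SAMHD1 KO and 0.0107%, 0.0128% and 0.00926% in SAMHD1 Sting dKO, and SAMHD1 KO 3 was the highest of the 6.

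Genes of the cell cycle had lower values in SAMHD1 Sting dKO but were not called by limma. Limma and edgeR called 0 of 45, while 32 were lower at an unadjusted p under 0.05, 14 were called lower by DESeq2, and 44 had a negative log2 change (median -2.10). Over all tested genes 22.3% had an unadjusted p under 0.05 by limma, in either direction, and DESeq2 called 4.99% lower. Mki67, the proliferation marker, was at 908, 3146 and 3642 normalized reads in SAMHD1 KO and 565, 436 and 291 in SAMHD1 Sting dKO (log2 -2.39, adjusted p = 0.0787). SAMHD1 KO 1 was lower than replicates 2 and 3, and WT was at 853, 2029.7 and 322. The mean log2 level of the 45 genes was 7.68, 9.57 and 9.32 in SAMHD1 KO and 7.54, 7.21 and 6.21 in SAMHD1 Sting dKO, so that SAMHD1 KO 1 lay close to SAMHD1 Sting dKO 1.

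These marker levels moved with the comparison, and its counts depended on whether they entered the model. With the B cell marker mean as a covariate 25 genes were called, 1 higher and 24 lower, and the 74 type I interferon genes called lower became 13, the 19 GTPases 2 and the 16 MHC class I genes 1. Oas3, Lgals3bp, Irf7, Usp18, Trim30a and Ifi27l2a were among those still called. In that model the median log2 change of the interferon list was -1.31, larger than the -0.94 without the covariate, and 93 of the 94 genes were negative. The median of the GTPases was -2.07 rather than -1.56, with all 19 negative, and that of the MHC class I genes -0.98 rather than -0.62, with all 26 negative. With the cell cycle mean as a covariate 253 genes were called, 80 higher and 173 lower, and 9 of the B cell markers. The B cell means of the 3 SAMHD1 Sting dKO libraries lay above those of the other 9 libraries, so this covariate and the genotype cannot be fully told apart, and the part of other cell types in the remaining results was not tested.

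**Figure D4:**
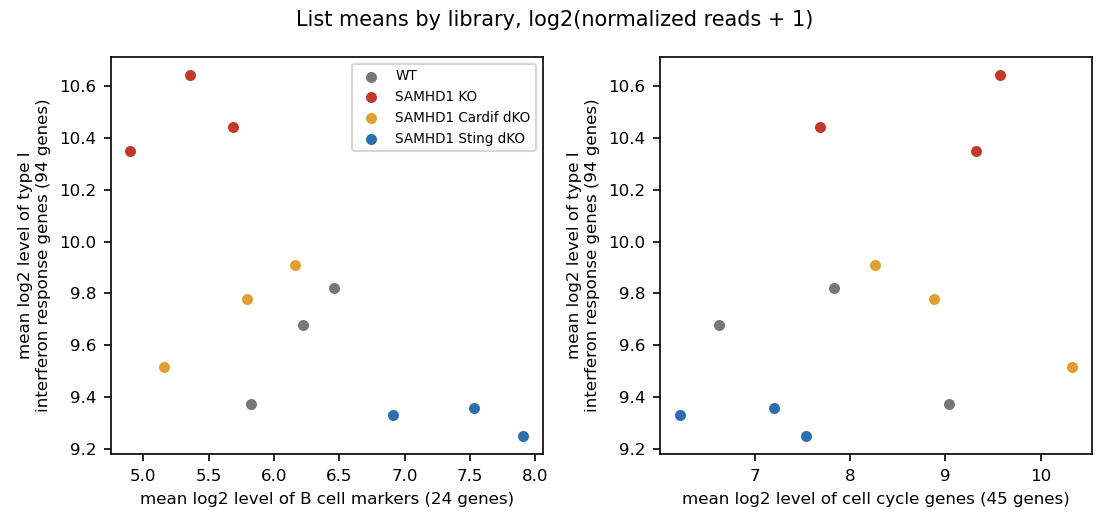
Mean log2(normalized reads + 1) of 94 type I interferon response genes (y axis) against that of 24 B cell markers (left, x axis) and of 45 cell cycle genes (right, x axis), 1 point per library and 3 per genotype. SAMHD1 Sting dKO libraries (blue) have the lowest interferon means and the highest B cell means, 6.91 to 7.91 against 4.90 to 5.68 in SAMHD1 KO (red).

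Clock genes were chosen after their values were seen. Dbp, a clock-controlled transcription factor and 1 of the 15 largest rises, was at 78.3, 24.8 and 66.0 normalized reads in SAMHD1 KO and 265, 309 and 299 in SAMHD1 Sting dKO (log2 2.50, SE 0.437, adjusted p = 0.00671), above every library of the other groups (40.7, 19.1 and 15.6 in WT). Nr1d1, which encodes the repressor REV-ERB alpha, was at 645, 117 and 438 and 1707, 1786 and 1596 (log2 2.40, SE 0.505, adjusted p = 0.0176). The 3 SAMHD1 Sting dKO libraries were close together for both genes, while SAMHD1 KO 2 stood below replicates 1 and 3. Tef, a relative of Dbp, rose by 1.10 on the log2 scale, and Cry1 (-1.49) and Nfil3 (-0.80), a repressor of the same sites as Dbp, fell. Nr1d2 (1.27, adjusted p = 0.0653), Per3 (0.72, adjusted p = 0.0543), Per1 (0.25, adjusted p = 0.726), Per2 (-0.06, adjusted p = 0.931), Cry2 (0.19, adjusted p = 0.553), Bhlhe41 (0.28, adjusted p = 0.566), Arntl (0.08, adjusted p = 0.688) and Clock (-0.08, adjusted p = 0.605) were not called. The labels give no time of day of collection. The log2 change of Nr1d1 was 1.67 without SAMHD1 KO 2. Its call was lost without SAMHD1 Sting dKO 1 or 2, that of Tef without SAMHD1 KO 3 or SAMHD1 Sting dKO 2 or 3, and that of Cry1 without SAMHD1 KO 2.

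**Figure D5:**
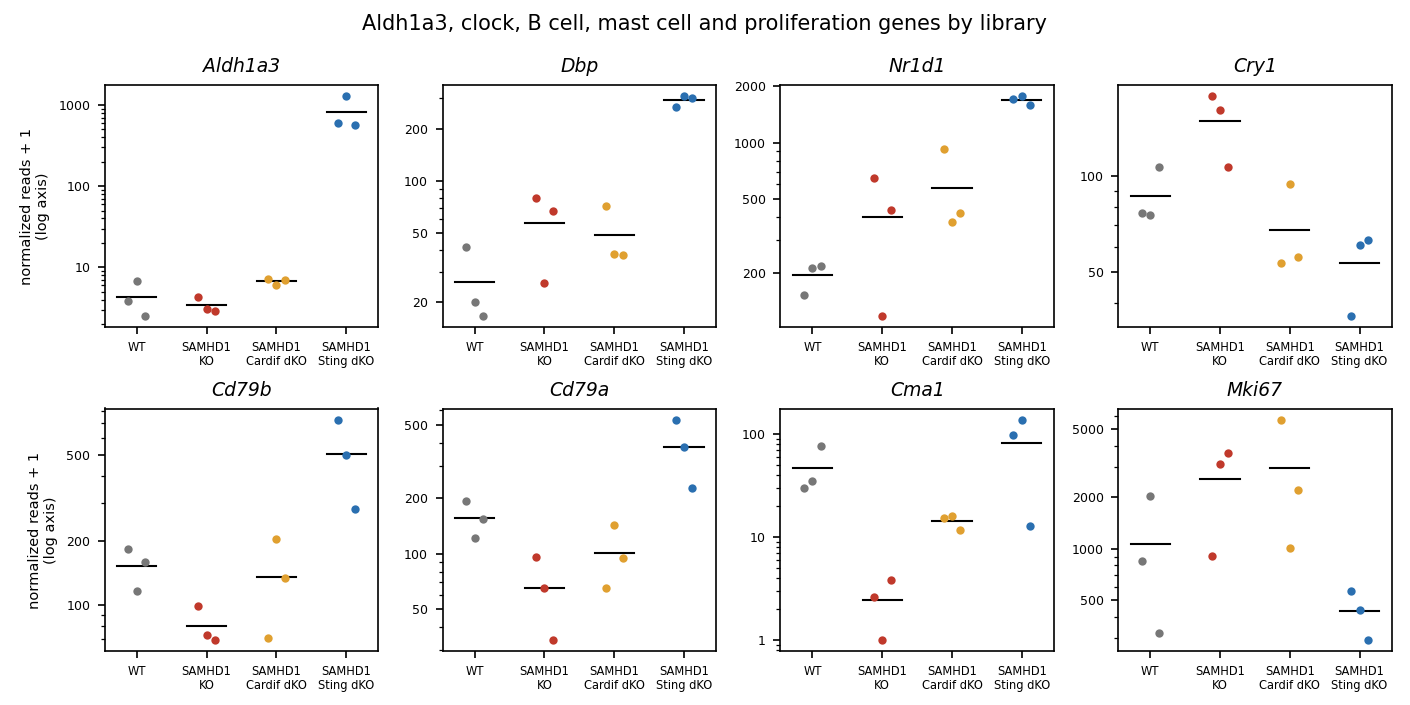
Normalized reads + 1 on a log axis in each of the 12 libraries for Aldh1a3, clock genes (Dbp, Nr1d1, Cry1), B cell genes (Cd79b, Cd79a), the mast cell gene Cma1 and the proliferation gene Mki67, with 3 points per genotype and a line at the mean. Aldh1a3 lies between 566 and 1308 normalized reads in SAMHD1 Sting dKO and at or below 6.15 in the other 9 libraries.

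Several other called genes were chosen after their values were seen. Emp1, an epithelial membrane protein, was at 869.5, 638 and 969 normalized reads in SAMHD1 KO and 1855, 2766 and 4836 in SAMHD1 Sting dKO (log2 1.84, SE 0.270, adjusted p = 0.00262). Fscn1, which bundles actin, was at 938, 1122 and 1306 and 4724, 4065 and 2549.7 (log2 1.72, SE 0.352, adjusted p = 0.0153), beside 4854, 2456 and 4181 in WT. Both were higher in all 3 SAMHD1 Sting dKO libraries, and Fscn1 in SAMHD1 KO lay below every WT library. Tns3, a focal adhesion protein (log2 1.41, SE 0.170, adjusted p = 0.000929), the kinase Mapk12 (log2 1.45, SE 0.242, adjusted p = 0.00524) and Pecam1, an adhesion molecule (log2 1.62, SE 0.231, adjusted p = 0.00220), rose as well, as did the endocytic adaptor Dab2 (log2 1.16, SE 0.270, adjusted p = 0.0284). The call of Fscn1 was lost without SAMHD1 KO 1 or SAMHD1 Sting dKO 1 or 2, and that of Dab2 without SAMHD1 KO 2 or 3 or SAMHD1 Sting dKO 2 or 3. Among falls outside the interferon lists, the phosphodiesterase Pde7b was at 612, 414 and 440.3 and 93.5, 121 and 113 (log2 -2.14, SE 0.262, adjusted p = 0.000969), with no overlap.

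Most remaining lists held few calls, to be read beside the 2.89% called lower and 2.77% called higher over all genes. In deoxynucleotide metabolism, the pathway of SAMHD1 itself, 4 of 29 genes were lower and 1 was higher (median log2 -0.10). Dck, the kinase that salvages deoxycytidine, was at 1760.4, 2082 and 1668 normalized reads in SAMHD1 KO and 730.0, 776 and 559 in SAMHD1 Sting dKO (log2 -1.42, SE 0.189, adjusted p = 0.00154). The other lower ones were Cmpk2, an interferon-induced mitochondrial kinase (-1.31), the phosphorylase Pnp (-0.85) and Samhd1. Of 40 inflammatory cytokine, chemokine and NF-kB target genes, 3 were lower and 0 higher (median -0.12), the neutrophil chemokines Cxcl1 (-0.86) and Cxcl2 (-0.83) and the adhesion molecule Icam1 (-0.77). Each of these 3 calls was lost without SAMHD1 Sting dKO 1, those of Cxcl1 and Icam1 also without SAMHD1 Sting dKO 2 or 3, those of Cxcl1 and Cxcl2 without SAMHD1 KO 1 or 2, and that of Cxcl1 without WT 2 or SAMHD1 Cardif dKO 3. Of 29 p53 targets, 2 were higher, Plk3 (0.88) and Dcxr (0.59), and 1 was lower, Btg2 (-0.28), with a median of -0.07. The median was 0.09 over 24 immediate early genes (2 higher, 1 lower), -0.15 over 21 heat shock chaperones (2 lower, Hspa8 at -0.55 and Dnajb1 at -0.38), 0.20 over 22 cholesterol genes (1 higher, Hsd17b7 at 1.28) and -0.08 over 31 lysosome genes (1 lower, Npc2 at -0.31). In the unfolded protein response none of the 3 tools called any of 25 genes (0 by limma, 0 by edgeR, 0 by DESeq2), and 1 was higher at an unadjusted p under 0.05 (median -0.01). Of the calls in this last group of lists and in the p53 list, those of Plk3 and Hspa8 were kept without any 1 library. Those of Dcxr and Btg2 were lost without replicate 1 or 3 of SAMHD1 KO or of SAMHD1 Sting dKO, and that of Btg2 also without any one WT or SAMHD1 Cardif dKO library. Those of Egr2 and Myc, the 2 higher immediate early genes, were lost without WT 1 or 2, SAMHD1 KO 1 or 3 or SAMHD1 Sting dKO 2 or 3, that of Egr2 also without WT 3 or SAMHD1 Cardif dKO 2 or 3, and that of Myc without SAMHD1 Sting dKO 1. That of Dnajb1 was lost without WT 1 or any one SAMHD1 KO or SAMHD1 Sting dKO library, that of Hsd17b7 without SAMHD1 KO 1 or SAMHD1 Sting dKO 1 or 2, and that of Npc2 without any one SAMHD1 KO library or SAMHD1 Sting dKO 1 or 3. On a list of 25 monocyte, dendritic cell and small peritoneal macrophage markers, 1 was higher, Dpp4 (1.97), and 2 were lower, among them Fcgr4. Of 7 neutrophil markers 1 was lower, Prtn3 (-0.83). The calls of Dpp4 and Prtn3 were lost without SAMHD1 KO 2 or 3 or SAMHD1 Sting dKO 2, that of Dpp4 also without SAMHD1 Sting dKO 1 and that of Prtn3 without SAMHD1 Sting dKO 3. Limma called 0 of 3 T and NK cell, 0 of 3 mesothelial and fibroblast and 0 of 3 red cell and platelet markers. By edgeR and by DESeq2 1 T and NK cell marker was higher and 0 of the 6 members of the other lists were called. At an unadjusted p under 0.05 by limma 3, 1 and 1 were higher, beside 22.3% of all tested genes in either direction. The mesothelial and fibroblast one, at log2 1.86, was also 1 of the 3 T and NK cell markers.

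The SAMHD1 Sting dKO libraries were also tested directly against those of SAMHD1 Cardif dKO, which lack MAVS in the same SAMHD1-deficient background. Of all genes, 25 were higher (0.189%) and 12 lower (0.0907%) in SAMHD1 Sting dKO than in SAMHD1 Cardif dKO. Of the 94 interferon genes, 8 were lower and 0 higher (median log2 -0.32), with a negative value in 84. Oas3 was at 833, 1340.5 and 997 in SAMHD1 Cardif dKO, above the 395, 453 and 309 of SAMHD1 Sting dKO (log2 -1.44, SE 0.240, adjusted p = 0.0327). Usp18 (log2 -1.43, SE 0.254, adjusted p = 0.0414), Oasl1 (log2 -2.13, SE 0.372, adjusted p = 0.0377) and Lgals3bp (log2 -0.71, SE 0.0941, adjusted p = 0.0225) were lower too. Irf7 (log2 -0.67, SE 0.230, adjusted p = 0.190) and Stat2 (log2 -0.40, SE 0.220, adjusted p = 0.419) were not called, nor were any of the 19 GTPases or the 26 MHC class I genes (medians -0.35 and -0.19). Aldh1a3 (log2 6.83, SE 0.412, adjusted p = 1.68e-05) and Dbp (log2 2.64, SE 0.437, adjusted p = 0.0327) were higher. The count of 37 genes depended on single libraries: it was 1 without WT 3, 2 without SAMHD1 Cardif dKO 3, and 8 to 22 without WT 1, SAMHD1 KO 3, SAMHD1 Cardif dKO 1 or 2, or any one SAMHD1 Sting dKO library. It was 4 with age as a covariate.

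Against WT, which shares no SAMHD1 deficiency, 12 of the 94 interferon genes were lower in SAMHD1 Sting dKO and 0 higher (12.8%, beside 2.93% called lower over all genes), with a median log2 change of -0.30. Over all genes 3.57% were called higher. Herc6 (log2 -0.64, SE 0.103, adjusted p = 0.00512) and Lgals3bp (log2 -0.67, SE 0.0941, adjusted p = 0.00293) were among the lower ones. Of the 19 GTPases 3 were lower, and of the 26 MHC class I genes 0 were called. Axl (log2 0.07, SE 0.288, adjusted p = 0.920) and Irf7 (log2 -0.46, SE 0.230, adjusted p = 0.261) were not called. Aldh1a3 (log2 7.57, SE 0.412, adjusted p = 5.05e-06) and Dbp (log2 3.60, SE 0.437, adjusted p = 0.00132) were higher than in WT as well.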

How the data were processed

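Peritoneal macrophages were isolated by FACS, strand-specific libraries were made from their poly-A RNA, 3 for each of the 4 genotypes, per the labels, and the authors deposited 1 table of read signal per gene, in which reads were divided by 1 size factor per library. Genes follow Ensembl annotation on mm9, per the file headers. Bedtools 2.16.2 and DESeq 1.6.1 are named in the submitters' processing notes, and these sources name no aligner and no counting mode. Whole reads were recovered for 100% of values (tolerance 1e-04 reads), and depth ran from 18884021 to 32204657 reads. Genes reaching 10 normalized reads in 3 or more libraries were fitted with limma 3.58.1 (R 4.3.3) on log2(normalized reads + 1), over all 12 libraries with a mean per genotype and 8 residual degrees of freedom, with a trend in the variance. A gene was called at a Benjamini-Hochberg adjusted p under 0.05 over all 13231 genes. All adjusted p-values are from limma, and fold changes on this scale understate low genes. The median SE of a log2 change was 0.135. edgeR 4.0.16 and DESeq2 1.42.0 were run on the recovered reads. Other alternatives were TMM factors, other pseudocounts and filters, covariates, a replicate block and leaving out each library. The limma, edgeR and DESeq2 fits of SAMHD1 Sting dKO against SAMHD1 KO were tested on simulated data. Promoter windows came from RefSeq tables of GRCm38.p6, matched by symbol. The named genes were Samhd1, Mavs and Tmem173, the 15 largest rises and 15 largest falls among called genes with a mean of at least 50 normalized reads and no overlap, the 10 lowest adjusted p and up to 4 per gene list by adjusted p, and 56 more were chosen after their values were seen. Some genes these rules name are not reported here. The genes compared and the gene lists were chosen with earlier results of these data known. Exact intervals of read ratios cover counting error only.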

Additional observations from a re-analysis of the deposited data

Results flagged for a closer look

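Levels differed between SAMHD1 Sting dKO and SAMHD1 Cardif dKO for 20 of the named genes, by limma's direct test with Benjamini-Hochberg adjustment over all tested genes. Most named genes were picked by their values in SAMHD1 Sting dKO minus SAMHD1 KO, which uses the same SAMHD1 Sting dKO libraries. Values are log2 differences of SAMHD1 Sting dKO minus SAMHD1 Cardif dKO. Higher in SAMHD1 Sting dKO were Aldh1a3 (6.83, adjusted p = 1.68e-05), Dbp (2.64, adjusted p = 0.0327), Gimap4 (2.23, adjusted p = 0.0377), Btla (2.18, adjusted p = 0.0309), Ebf1 (2.12, adjusted p = 0.0312), Cd22 (2.03, adjusted p = 0.0345), Pecam1 (1.74, adjusted p = 0.0225), Tef (1.49, adjusted p = 0.0327), Tns3 (1.25, adjusted p = 0.0236), Mavs (0.80, adjusted p = 0.0225) and Jund (0.57, adjusted p = 0.0327). Lower in SAMHD1 Sting dKO were Oasl1 (-2.13, adjusted p = 0.0377), Ifi27l2b (-1.61, adjusted p = 0.0327), Ifi27l2a (-1.59, adjusted p = 0.0327), Oas3 (-1.44, adjusted p = 0.0327), Usp18 (-1.43, adjusted p = 0.0414), Dck (-1.14, adjusted p = 0.0327), Lgals3bp (-0.71, adjusted p = 0.0225), Herc6 (-0.61, adjusted p = 0.0327) and Trim30a (-0.48, adjusted p = 0.0327). Mavs is the gene deleted in SAMHD1 Cardif dKO. Btla, Cd22 and Ebf1 are B cell genes, and the B cell list mean was 6.91 to 7.91 in SAMHD1 Sting dKO and 5.15 to 6.16 in SAMHD1 Cardif dKO; its part in the differences was not tested. Of all tested genes 37 were called in this comparison, a count that was 1 without WT 3. With age as a covariate 4 genes were called, and with the B cell mean as a covariate 0. Ifi27l2a and Ifi27l2b may share reads.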

How the results depend on the processing

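The count of 749 called genes and its split into 366 higher and 383 lower stayed within 1.5 times with TMM factors, edgeR, other pseudocounts, both other filters on low values and age as a covariate. DESeq2 called 1306, 646 and 660, and 503 rather than 37 against SAMHD1 Cardif dKO. Fits of only the libraries of the compared groups called 461, 216 and 245, and 7. With age as a covariate 4 genes were called against SAMHD1 Cardif dKO. With the B cell mean as a covariate the counts were 25, 1 and 24, 13 for the interferon list, 0 for the B cell list and 0 against SAMHD1 Cardif dKO. The B cell markers make up this mean, so their count of 0 follows from the model and is no result about them. With the cell cycle mean they were 253, 80 and 173, 9 for the B cell list and 7 against SAMHD1 Cardif dKO. Leaving out each library in turn gave 421 to 864 genes, 198 to 407 higher, 220 to 457 lower, 62 to 78 interferon genes lower, 14 to 20 B cell markers higher, and 1 to 44 against SAMHD1 Cardif dKO. In their deviations from the group means, same-numbered SAMHD1 KO and SAMHD1 Sting dKO libraries correlated at -0.24, 0.17 and -0.01. With 3 such values, whether the numbers mark a pairing cannot be told. With the replicate number as a block 672 genes were called, and 23 against SAMHD1 Cardif dKO, and not every library correlated best with its own number. The causes of these shifts were not tested.

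Of the 174 named genes 107 were called. Of these 76 stayed called without any 1 library, and 31 did not. The call was lost for 1 with edgeR (Btg2), 0 with DESeq2, 6 with the block, 15 with age, 30 with the cell cycle mean and 84 with the B cell mean. Signs turned as follows, in log2 values. Cd79a, Cd79b, Fcrla and Spib are members of the B cell list, so their values near 0 with its mean follow from that covariate. With the B cell mean: Jund -0.0208, Pik3c2b -0.0387, Il5ra -0.94, Fcrla -0.14, Cd79a -0.19, Cd79b -0.0648, Ly6d -0.17, Spib -0.16, Cd2 -0.77, Mki67 0.45, E330016A19Rik 0.12, Bub1b 0.37, Cdc20 0.35, Ccr7 -1.17, H2-DMb2 -0.27, Cd68 0.0270, Dpp4 -0.28, Bhlhe41 -0.88, Vsig4 -0.54, Lyz2 -0.30, Il7r -0.0180, Gata6 0.10, Aim2 0.15, Ifnar1 -0.16, Elane 0.72, Aldh1a2 0.14, Selp -0.18, Arntl -0.13, Irf3 -0.18 and Clock 0.0290. With the cell cycle mean: Cd68 0.16, Cry2 -0.15, Cd14 -0.11, Icam2 0.21, Ifnar1 -0.00708, Alox15 0.0284 and Irf3 -0.0552. With age: Gp1bb -0.0721. With DESeq2: Mavs 0.00235, Icam2 0.00131, Alox15 0.00198, Gp1bb -0.0480 and Csf1r 0.00581. With edgeR: Mavs 0.00771, Icam2 0.00564, Alox15 0.00667, Gp1bb -0.0197 and Csf1r 0.0111. With TMM factors: Mavs 0.000791, Alox15 0.00421 and Csf1r 0.00435. The ranges over fits without 1 library were Aim2 from -0.19 to 0.0257, Alox15 from -0.0446 to 0.0732, Arntl from -0.00603 to 0.14, Cav1 from -0.0868 to 0.48, Cd14 from -0.00343 to 0.37, Csf1r from -0.0885 to 0.0795, Gp1bb from -0.19 to 0.45, Icam2 from -0.20 to 0.20, Mavs from -0.0851 to 0.11, Per2 from -0.34 to 0.28 and Selp from -0.0847 to 0.20. The cause was not tested. Depth limits genes near 0, whose folds rest on a few reads.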
